A study of Mus musculus with 2 samples.

Results

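Mature dendritic cells (DCs) of the mouse spleen were examined in 2 single-cell RNA-seq libraries, and were defined by transcripts of Ccr7, Fscn1, Socs2, Apol7c and Cacnb3. A member had between 500 and 5000 detected genes, less than 15% mitochondrial and less than 30% ribosomal transcripts, and at least 6 transcripts of these 5 genes together, 1 of them from Ccr7 or Fscn1. The MHC class II genes Cd74, H2-Aa, H2-Ab1 and H2-Eb1 had to make up at least 0.5% of its transcripts and the neutrophil genes S100a8 and S100a9 under 1%, with at most 2 transcripts of the plasmacytoid DC gene Siglech. This gave 544 of 20060 kept cells, of which 482 came from the wild-type library (9424 kept of 10845 barcodes) and 62 from the SCD library (10636 kept of 13447 barcodes).

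The libraries were made from spleens of untreated mice aged 12 to 16 weeks, 1 wild-type control and 1 mouse with sickle cell disease (SCD, the Berkeley model), after magnetic depletion of other cells to enrich DCs. By the labels, both animals were homozygous for the targeted alpha globin allele Hbatm1Paz and carried the transgene Tg(HBA-HBBs)41Paz with human globin genes. The control, called wild-type, was heterozygous for the targeted beta globin allele Hbbtm1Tow and hemizygous for the transgene, and did not sickle. The SCD mouse was homozygous for both. UMIs counted to the mouse gene Hba-a1 were found in 55 of 482 wild-type members (410.1 CPM, 94.1% of them in 1 cell) and 22 of 62 SCD members (72.9 CPM), and whether human transgene reads were counted there was not tested. The question was how splenic DCs differ under chronic hemolysis. With 1 animal per group no difference has a replicate check, no p-value was computed, and all intervals in brackets are 95% and cover counting error only, so that animal, library and genotype cannot be told apart.

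Conventional DCs take up antigen in tissues and present it to T cells. cDC1, marked by Xcr1 and Clec9a, are known for presenting antigen to CD8+ T cells, and cDC2, marked by Sirpa, for presenting to CD4+ T cells. When a conventional DC of either lineage matures, it loses much of its uptake machinery, displays MHC class II and costimulatory molecules, and expresses CCR7, the receptor for CCL19 and CCL21, which leads it into the T cell zone. Fascin, encoded by Fscn1, bundles actin in the dendrites of such cells, and SOCS2 is an inhibitor of cytokine signalling.

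The members' summed depth was 3399120 transcripts (unique molecular identifiers, UMIs) in the wild-type and 466533 in the SCD library, with medians of 6214 and 6326.5 UMIs per cell. Levels below are UMIs summed over the cells of a set in 1 library, per 1000000 UMIs of that set (CPM), and log2 ratios carry a pseudocount of 5 CPM. Called expressed were genes that reached both 50 CPM and 20 UMIs in 1 of the libraries or sets compared, and past the threshold were log2 ratios of at least 1 either way. The 3 counts taken as the floor for a gene at 0 stand for 0.883 CPM among wild-type and 6.43 CPM among SCD members. The libraries shared 88 barcodes, 2 of which were members in either library and 0 in both. Of the 14 neutrophil genes in a marker list, the sum was 1044 CPM in wild-type and 5204 CPM in SCD members, with none of the genes at 0, and it moved likewise in resting cDC2, from 962 to 4200 CPM. Its part in the values below was not tested. Markers of basophils and mast cells were at or near 0, with 7 of 8 at 0 in each library's members.

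Ccr7 and Fscn1 were found in most of the cells they helped to choose, the other 3 markers in fewer. Ccr7 (chromosome 11, 99144196 to 99155077 in GRCm38) was at 967 CPM in wild-type (935 to 1001) and 1275 CPM in SCD members (1175 to 1382), and had a UMI in 448 of 482 and 57 of 62 cells. Fscn1 (chromosome 5, 142960343 to 142973185) was at 1129 CPM and 1432 CPM, in 454 and 57 cells. Socs2 was at 609 and 645 CPM, in 375 and 48 cells, and Cacnb3, a calcium channel beta subunit, at 515 and 602 CPM, in 386 and 48 cells. Apol7c, an apolipoprotein L family member, was the only one of the 5 with a lower level in SCD members, at 2168 CPM (2119 to 2218) against 1653 CPM (1538 to 1774), and was found in 365 and 39 cells. In resting cDC2, which hold at most 1 UMI of these genes by their definition, all 5 were below 10 CPM. These values describe the choice of the cells and are no finding.

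The sum of the 5 markers had a median of 31 UMIs per wild-type and 26 per SCD member. Just inside the threshold were 17 wild-type cells with a sum of 6 and 16 with 7, against 23 with 4 and 18 with 5 just outside it. In the SCD library 2 cells stood at each of these sums. The limits on the other genes kept some marked cells out. Of the 660 wild-type cells that met the marker sum and the limit on Siglech, 28 failed on S100a8 and S100a9 alone, 132 on MHC class II alone and 18 on both. Of the 94 such SCD cells, 8, 17 and 7 did so. On Siglech alone, 7 wild-type and 0 SCD cells failed. S100a8 and S100a9 reached 0.982% in 1 SCD member, close to the limit of 1%.

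The label was checked against markers that the rule did not use. Il4i1 (chromosome 7, 44816387 to 44840809), a secreted amino acid oxidase known from mature DCs, reached 1509 CPM in wild-type and 1389 CPM in SCD members, compared with 62.0 and 42.0 CPM in resting cDC2. Its annotated span overlaps that of Nup62 on the same strand by 14426 bases, so a part of these counts may be shared. With every cell thinned to 2000 UMIs, Il4i1 had a UMI in 88.1% of 464 wild-type members (84.9 to 90.9) and 87.9% of 58 SCD members (76.7 to 95.01). The shares without thinning were 94.8% and 93.5%, and thinning left out 18 and 4 shallower members. In neutrophils, which should lack it and have median depths of 2497 and 7009 UMIs, the thinned shares were 1.498% and 0.259%. Of 25 other genes known from mature DCs, 24 were expressed, and all 24 were past the threshold over resting cDC2 and over resting cDC1 in both libraries. All expressed genes gave 10.9% higher in all 4 of these ratios (470 of 4315) and 7.09% lower. Since the cells were chosen by transcripts of the same cells, these shares describe the set and test nothing.

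**Figure D1:**
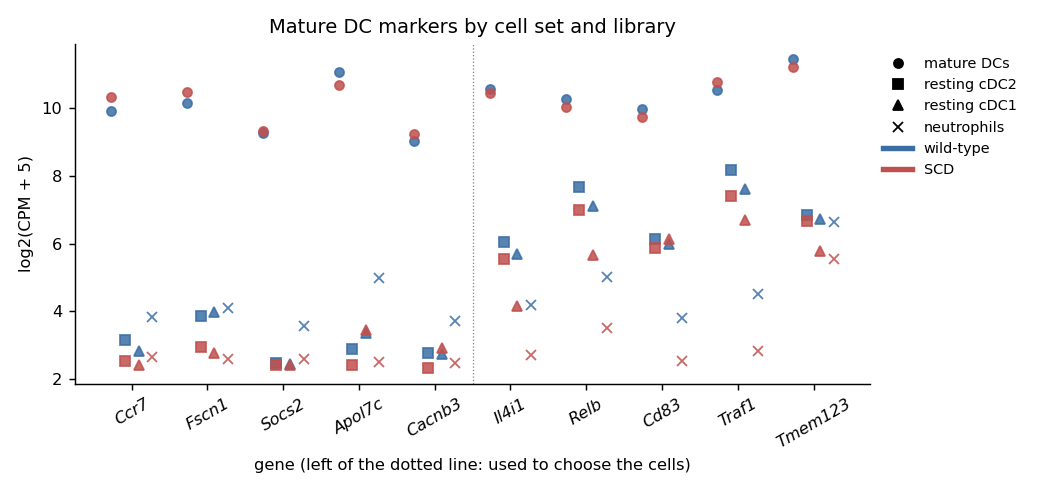
Levels of 10 mature DC markers as log2(CPM + 5) on the vertical axis, for each gene in mature DCs, resting cDC2, resting cDC1 and neutrophils, coloured by library. Genes left of the dotted line chose the cells, and right of it Il4i1, Relb, Cd83, Traf1 and Tmem123, which did not, also lie higher in mature DCs than in the other sets of both libraries.

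Promoters are shown for 4 genes that were higher in mature than in resting cDC2 of both libraries, and for Cxcl10, which was so in the wild-type only, because the factor NF-κB, known for its part in DC maturation, binds a known consensus. The 250 bases before the start site are from RefSeq (GRCm38.p6), written 5′ to 3′ on the gene's strand, and capitals mark matches to the NF-κB consensus on either strand, where neighbouring matches may overlap. Nfkb2, which encodes the p100 and p52 subunit, stands for a promoter with 3 matches (chr19:46304487-46304736, plus strand). Icosl, the ligand of the T cell costimulator ICOS, has 1 match (chr10:78069118-78069367, plus strand). Fscn1 (chr5:142960105-142960354, plus strand) and Ccl22 (chr8:94745434-94745683, plus strand), markers of the mature state, have 0. Cxcl10 (chr5:92348890-92349139, minus strand), a chemokine seen in few members, has 3.
Nfkb2: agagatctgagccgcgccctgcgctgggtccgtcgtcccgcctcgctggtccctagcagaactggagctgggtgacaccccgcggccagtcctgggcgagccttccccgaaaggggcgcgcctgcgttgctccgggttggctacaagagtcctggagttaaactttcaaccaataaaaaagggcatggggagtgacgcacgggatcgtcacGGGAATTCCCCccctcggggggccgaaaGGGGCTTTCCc
Icosl: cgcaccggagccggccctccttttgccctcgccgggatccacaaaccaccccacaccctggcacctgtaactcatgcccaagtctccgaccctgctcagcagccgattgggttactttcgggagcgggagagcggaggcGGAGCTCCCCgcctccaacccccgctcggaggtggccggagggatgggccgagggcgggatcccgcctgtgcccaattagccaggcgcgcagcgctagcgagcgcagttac
Fscn1: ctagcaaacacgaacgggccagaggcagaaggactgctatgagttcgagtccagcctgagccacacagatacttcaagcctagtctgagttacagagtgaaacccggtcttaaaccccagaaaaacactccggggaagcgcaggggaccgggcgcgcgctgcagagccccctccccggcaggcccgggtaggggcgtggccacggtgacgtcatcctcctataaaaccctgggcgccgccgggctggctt
Ccl22: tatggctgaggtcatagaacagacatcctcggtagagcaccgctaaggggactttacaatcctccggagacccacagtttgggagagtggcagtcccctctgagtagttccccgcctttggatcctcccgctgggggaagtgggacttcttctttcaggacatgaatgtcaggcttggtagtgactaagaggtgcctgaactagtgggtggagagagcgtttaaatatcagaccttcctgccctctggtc
Cxcl10: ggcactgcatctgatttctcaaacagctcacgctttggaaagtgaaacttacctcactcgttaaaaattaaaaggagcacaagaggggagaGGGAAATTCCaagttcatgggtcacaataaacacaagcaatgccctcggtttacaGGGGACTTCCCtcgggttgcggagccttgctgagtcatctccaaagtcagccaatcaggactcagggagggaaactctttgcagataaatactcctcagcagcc

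Shares of genes with a match were taken over windows of 250 bases before to 50 after a start site. Promoters on chromosome 18 were left out of all these shares. A match was found for 9.55% of 27025 genes with a promoter in the rest of the RefSeq table and for 13.4% of 3422 expressed genes. It was found for 19.03% of 352 genes higher in mature than in resting DCs in all 4 ratios, for 15.6% of 244 genes lower in all 4, and for 9 of 18 genes of the NF-κB list. A match was held by 2 of 18 other mature DC markers (11.1%), by 3 of 12 genes highest over resting DCs (25%) and by 3 of 9 genes lowest against them (33.3%). A match describes letters of a window and not a bound site.

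Compared with all kept cells, mature DCs were a much smaller part of the SCD than of the wild-type suspension. They made up 5.11% of wild-type cells (4.68 to 5.58) and 0.583% of SCD cells (0.447 to 0.747), a ratio of 0.114 (0.0860 to 0.149). Neutrophils numbered 4389 in the wild-type and 7505 in the SCD library. Among kept cells other than neutrophils the shares were 9.57% (8.77 to 10.4) and 1.98% (1.52 to 2.53), a ratio of 0.207 (0.156 to 0.270).

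Among conventional DCs (mature DCs, resting cDC1 and resting cDC2 together) the mature cells were 27.5% of 1750 in the wild-type (25.5 to 29.7) and 12.4% of 498 in the SCD library (9.68 to 15.7). The ratio was 0.452 (0.341 to 0.590). Over all kept cells, resting cDC2 had a ratio of 0.208 (0.180 to 0.239). Within resting cDC2, the Clec4a4 and Dtx1 type had 0.130 (0.102 to 0.163), an interval that overlapped that of the mature DCs, and the Cd209a and Clec10a type 0.308 (0.255 to 0.370). The ratio of resting cDC1 depended on how they were defined. It was 0.749 (0.615 to 0.912) over all kept cells and 1.36 (1.12 to 1.66) among cells other than neutrophils. The resting cDC1 set was mixed in the wild-type library, where 47.1% of its thinned cells held more cDC1 and 18.2% more cDC2 transcripts, against 82.6% and 3.68% in the SCD library. With at least 2 UMIs of Xcr1 and Clec9a required, a setting chosen after seeing the data, 54 wild-type and 143 SCD cells were left, and the ratio over all kept cells was 2.35 (1.70 to 3.27). No direction is therefore given for resting cDC1. The ratio for mature among conventional DCs was 0.452 under that setting.

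**Figure D2:**
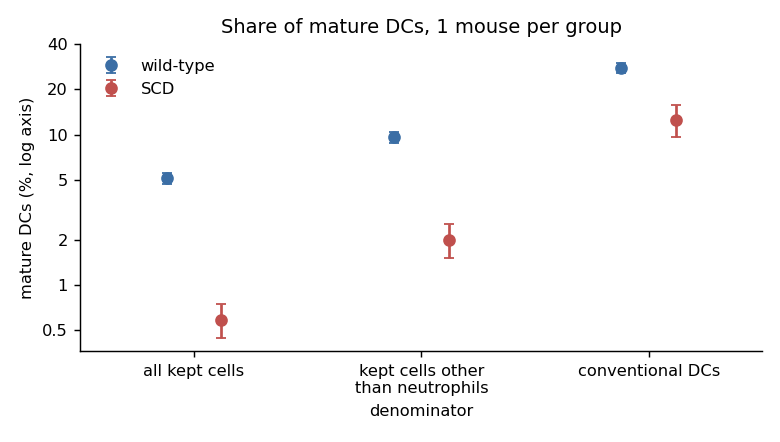
Share of mature DCs in percent (log axis) with 3 denominators, for the wild-type and the SCD library, with exact 95% binomial intervals that cover counting error only. The SCD value lies below the wild-type value with each denominator, at ratios of 0.114, 0.207 and 0.452.

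Mature DCs were compared with resting DCs of the same library. Over resting cDC2, 532 of 3833 expressed genes (13.9%) were higher and 492 (12.8%) lower in wild-type members, and 691 of 3733 (18.5%) higher and 696 (18.6%) lower in SCD members. Over resting cDC1 the shares were 15.1% higher and 13.9% lower in the wild-type and 20.2% and 16% in the SCD library. A gene below the minimum in 1 of the sets compared entered through the other, where it was higher. Counts over resting DCs, here and for the lists below, were set in part by this and test nothing. Beyond the rule's own markers, the genes with the highest least ratio included Gadd45b, a stress-induced regulator of kinase signalling, at 1060.0 CPM in wild-type and 1153 CPM in SCD members against 18.4 and 19.4 CPM in resting cDC2. Cd63, a tetraspanin of late endosomes, was at 691 and 845 CPM against 10.8 and 14.3 CPM. Asprv1, an aspartic protease, was at 476 and 412 CPM, and the Nudix hydrolase Nudt17 at 157 and 186 CPM against below 1 CPM in resting cDC2. The transporter genes Slc4a8 and Slco5a1, and Ankrd33b, Crispld2, Tmcc3 and 2610528A11Rik, completed this group of 10. Each of the 10 was below the minimum in the resting sets and passed it only through the members, where it was higher. Crispld2 was at 377 CPM in wild-type and 186 CPM in SCD members.

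Of 20 expressed NF-κB pathway genes, 11 were higher and 1 lower over resting cDC2 in the wild-type, and 13 were higher and 1 lower in the SCD library. Relb, a subunit of the non-canonical pathway, was at 1233 and 1042 CPM in members against 199 and 122 CPM in resting cDC2. Traf1, an adaptor of TNF receptors, was at 1472 and 1747 CPM against 283 and 166 CPM. The ubiquitin ligase Birc2 was at 876 and 819 CPM against 80.8 and 47.9 CPM. Nfkb1, which encodes p105 and p50, was the member that was lower, at 232 and 195 CPM against 552 and 470 CPM. BCL2 family genes, which control survival, were higher for 4 and 6 of 9 and lower for 0, with the pro-apoptotic Bcl2l11 at 158 and 178 CPM against 18.0 and 24.2 CPM. Bcl2l11 passed the minimum only through the members, so these BCL2 family counts are not read.

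Of the expressed costimulatory genes, 7 of 10 in the wild-type and 7 of 9 in the SCD library were higher over resting cDC2, and 1 was lower in each. Cd83, which stabilises MHC class II and CD86 at the surface, was at 997 and 851 CPM in members against 66.2 and 53.5 CPM. Icosl was at 902 and 686 CPM against 151 and 89.1 CPM. The TNF receptors Tnfrsf4 (183 and 339 CPM) and Tnfrsf9 (70.9 and 57.9 CPM) were below 3 CPM in resting cDC2 of both libraries. They passed the minimum only through the members, where they were higher, so the costimulatory counts are not read. Cd40 was at 156 and 139 CPM against 59.1 and 35.2 CPM, and Cd86 at 101 and 79.3 CPM against 53.9 and 40.8 CPM. Cd80 was at 52.7 and 40.7 CPM against 50.02 and 20.2 CPM, so that its wild-type levels were close. Cd48, an adhesion partner of CD244, was the lower one, at 102 and 83.6 CPM against 228 and 313 CPM. Inhibitory genes were split, with 4 higher and 4 lower of 10 in the wild-type and 7 higher and 4 lower of 12 in the SCD library. Among them Cd200 was at 168 and 171 CPM against 2.15 and 1.58 CPM, and Tgfb1 at 117 and 75.02 CPM against 424 and 344 CPM. Cd200 passed the minimum only through the members, so the inhibitory counts are not read either.

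Antigen presentation genes were compared with resting cDC2 by list. Of 15 MHC class I loading genes, 6 in the wild-type and 10 in the SCD library were higher over resting cDC2 and 0 lower, and over resting cDC1 6 were higher and 0 lower in the wild-type and 6 higher and 1 lower in the SCD library, with medians of 0.84 and 0.33. B2m, the light chain of class I, was at 6447 and 6190.3 CPM against 2990.2 and 2589 CPM, and Nlrc5, the transactivator of class I genes, at 142 and 129 CPM against 16.1 and 6.73 CPM. Of 11 genes of the class II loading list, 1 was higher, 4 lower and 6 within the threshold in either library. Over resting cDC1 in the SCD library 2 were higher and 4 lower with a median of -0.02. Only 9 genes of this list passed the minimum among members. The others entered only through the resting set, where they were higher, so these counts are not read. H2-DMa, which exchanges peptides on class II, was at 261 and 204 CPM against 729 and 780.4 CPM. March1, the ubiquitin ligase that removes class II and CD86 from the surface, was at 30.6 and 21.4 CPM against 222 and 156 CPM. The higher one over resting cDC2 was Cd1d1, at 112 and 77.2 CPM against 19.5 and 6.73 CPM. It presents lipids and is no part of class II loading, although the list held it. Uptake and sensing genes were lower for 8 of 12 and 12 of 14 and higher for Ly75 and Cst3 in both libraries. Only 6 genes of this list passed the minimum among members. The others counted passed it only through the resting set, where they were higher, so these counts are not read. Over resting cDC1, 7 of 11 and 5 of 9 were lower and 2 and 1 higher. Cst3 was at a lower level in members than in resting cDC1 of both libraries. Ly75, the endocytic receptor DEC-205, was at 123 and 197 CPM against 6.75 and 3.17 CPM.

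**Figure D3:**
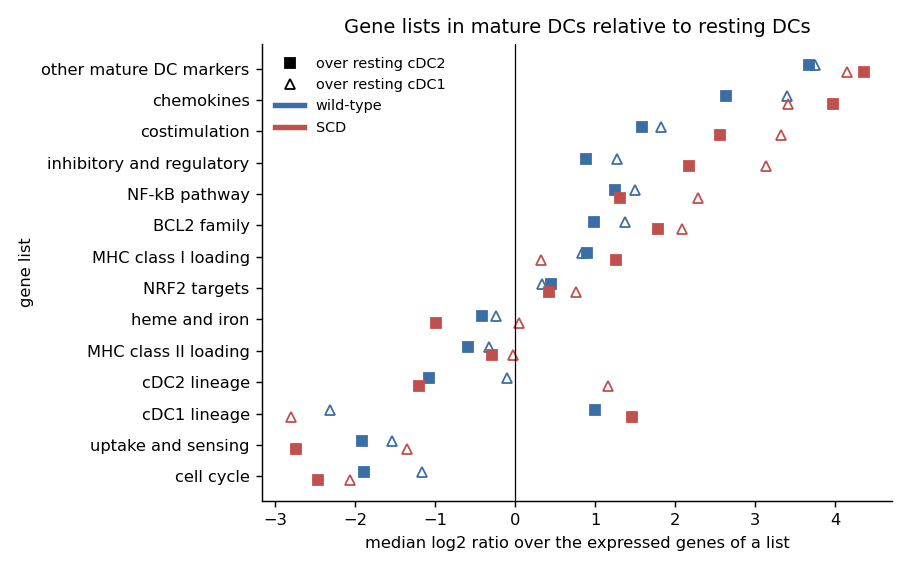
Median log2 ratio over the expressed genes of 14 lists, mature DCs over resting cDC2 (squares) and over resting cDC1 (triangles), coloured by library. The other mature DC markers have medians from 3.68 to 4.36. The cell cycle list has medians from -2.47 to -1.17, but 4 of its genes passed the minimum among members and 9 to 14 with a resting set. Genes that entered only through the resting set were higher there. The cDC1 lineage list lies above 0 over resting cDC2 and below 0 over resting cDC1 in both libraries. Resting cDC1 were chosen by cDC1 genes, and resting cDC2 by cDC2 genes with at most 1 UMI of Xcr1 and Clec9a. The values of both lineage lists over these sets were set in part by that choice.

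Transcripts of dividing cells were counted in mature and resting DCs. At least 2 UMIs of 6 cell cycle genes (Mki67, Top2a, Cdk1, Ccna2, Ccnb2 and Birc5) were found in 6 of 464 thinned wild-type members (1.29%, 0.476 to 2.79) and 0 of 58 SCD members. At 3 counts this allows a share of up to 5.17% with such UMIs, and the exact upper limit was 6.16%. In resting cDC2 the shares were 6.75% (5.30 to 8.45) and 10.2% (6.74 to 14.8), and in resting cDC1 9.78% and 9.47%. Top2a, a topoisomerase of dividing cells, had a UMI in 1.72% (0.747 to 3.37) of thinned wild-type and 6.90% (1.91 to 16.7) of SCD members, against 5.88% and 9.43% of resting cDC2, and in 4.15% and 12.9% of members without thinning. It was also found in 2.64% and 9.07% of thinned neutrophils. The proliferation marker Mki67 was at 20.01 and 12.9 CPM in members against 127 and 192 CPM in resting cDC2. Genes lowest against resting DCs included Ckb, a creatine kinase, at 38.5 and 45.0 CPM against 291 and 293 CPM, and Alox5ap, which activates leukotriene synthesis, at 87.4 and 109 CPM against 583 and 853 CPM. The transcription factor Mef2c was at 41.8 and 17.2 CPM against 320 and 253 CPM, the actin-severing gelsolin gene Gsn at 45.9 and 19.3 CPM against 285 and 247 CPM, and the nucleotide receptor P2ry6 at 11.8 and 2.14 CPM against 79.2 and 71.7 CPM. With March1, given above, Gm37474, Tm6sf1, Tifab, Ppfia4, Plac8, Slc6a13, Cln8, Amz1 and Il16 were the other genes of this group. Of the group, only Alox5ap and Plac8 passed the minimum among members, and the others passed it only through the resting sets.

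The plotted gene groups were followed along the sum of the rule's own markers. Its lowest bin was itself chosen by lineage genes, among them 4 of the cDC2 transcripts and the cDC1 transcripts Xcr1, Clec9a, Wdfy4 and Naaa. Values along the bins therefore describe the choice of the cells and test nothing. Cells were not thinned for the bins, and the median depth of the wild-type bins lay between 5502.5 and 8759 UMIs. In the wild-type, 6 other mature markers (Il4i1, Cd83, Relb, Mreg, Ccl22 and Nudt17) summed to 349 CPM in resting conventional DCs, 1093 CPM at 2 to 3 marker UMIs, 2173 at 4 to 5, 3114 at 6 to 9, 3692 at 10 to 19 and 4614 CPM at 20 or more. The cDC2 transcripts were at 1139 CPM in resting cells, 982 CPM at 2 to 3, 967 at 4 to 5, 807 CPM at 6 to 9, 666 at 10 to 19 and 369 CPM at 20 or more. The cDC1 transcripts had no such order, at 743 CPM in resting cells, 399.8 CPM at 4 to 5, 707 at 10 to 19 and 122 CPM at 20 or more. In the SCD library the other markers were at 196 CPM in resting cells, 3215 CPM at 6 to 9, 2628 at 10 to 19 and 4334 CPM at 20 or more. There the cDC2 transcripts were at 858 CPM in resting cells, 904 CPM at 2 to 3, 432 CPM at 6 to 9 and 154 CPM at 20 or more. The cDC1 transcripts were at 2382 CPM in resting cells of that library, 342 CPM at 2 to 3, 1293 at 10 to 19 and 234 CPM at 20 or more. MHC class II loading genes were at 4494 CPM in resting cells, 4573 CPM at 2 to 3 UMIs and 2540.3 CPM in the highest bin of the wild-type library, and at 3870.4 and 2033 CPM in the SCD library. Costimulatory and NF-κB genes were higher in each next bin of the wild-type library, from 788 to 3509 and from 2769.8 to 8339.9 CPM. Without Cd83 and Relb, which are also among the other mature markers, they had the same order, from 723 to 2468 and from 2583 to 7048 CPM. Inhibitory genes without Il4i1 had no such order, at 1089.7 CPM in resting cells, 1006.3 CPM at 6 to 9 and 1282 CPM at 20 or more. Uptake and sensing genes summed to 8345 CPM in resting cells, 3913 CPM at 4 to 5 UMIs and 7592 CPM at 20 or more, of which Cst3 made up 4021, 2143 and 6008 CPM. Without Cst3 they were at 4324, 1770 and 1584 CPM in the wild-type, and at 5130.3 CPM in resting cells and 1884 CPM in the highest bin of the SCD library. Cell cycle genes were at 3114, 5459 and 3277 CPM in the same wild-type bins. The SCD bins between held 4 to 14 cells each.

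**Figure D4:**
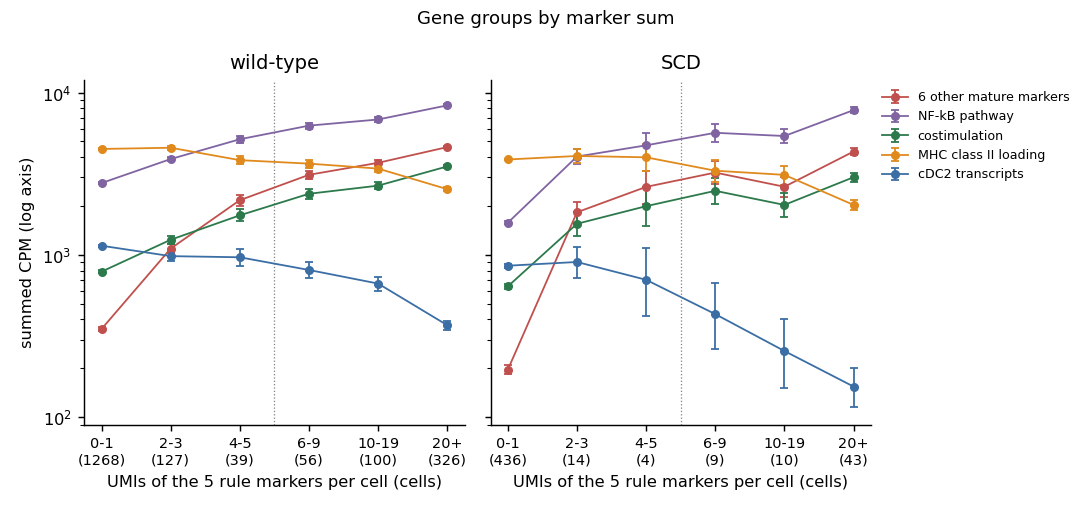
Summed CPM (log axis) of 5 gene groups in cells binned by UMIs of the 5 rule markers, with the number of cells per bin in brackets and exact 95% Poisson intervals. The lowest bin holds resting cDC1 and cDC2, which were chosen in part by lineage transcripts, and the dotted line is the member threshold. The other mature markers go up while cDC2 transcripts go down from left to right in the wild-type library. The bins follow the markers that chose the members, so this order describes that choice and tests nothing.

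Transcripts of the cDC1 and cDC2 lineages, which the rule did not use, were still found in part of the members. After thinning, at least 2 UMIs of 7 cDC2 genes (Sirpa, Clec4a4, Dtx1, Cd209a, Clec10a, Itgam and Mgl2), and more than of 6 cDC1 genes (Xcr1, Clec9a, Wdfy4, Naaa, Cadm1 and Itgae), were held by 112 of 464 wild-type members (24.1%, 20.3 to 28.3) and 8 of 58 SCD members (13.8%, 6.15 to 25.4). More cDC1 transcripts were held by 19 wild-type members (4.09%, 2.48 to 6.32) and 7 SCD members (12.1%, 4.99 to 23.3). After thinning, the intervals overlapped between the libraries for both classes. The remaining 71.8% and 74.1% fell in neither class, and all of these had sums within 1 UMI of each other. Without thinning, 40 wild-type and 12 SCD members had more cDC1 and 268 and 20 had more cDC2 transcripts, and the intervals of the cDC2 shares, 55.6% (51.04 to 60.1) and 32.3% (20.9 to 45.3), did not overlap. Resting cDC2 measured in the same way gave 12.3% and 13.9% with more cDC1 transcripts, so a share of that size arose in cells chosen as cDC2. Without Wdfy4, the cDC1 shares of members were 2.59% and 10.3%, a setting chosen after seeing the data.

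Members with more cDC1 transcripts differed from those with more cDC2 transcripts in genes outside both lists. In the wild-type library, the coreceptor gene Cd8a, known from splenic cDC1, was represented by 210 UMIs (394 CPM) in the 40 cDC1-type and 13 UMIs in the 268 cDC2-type members, and by 23 and 0 UMIs in the SCD library. Cd207, which encodes langerin, had 38 and 0 UMIs in the wild-type and 10 and 0 in the SCD library, but its UMIs came from only 8 of 482 and 2 of 62 members. Cst3, the cysteine protease inhibitor cystatin C, was at 16583 CPM in cDC1-type and 1883 CPM in cDC2-type members of the wild-type, and at 26721 and 4536 CPM in the SCD library. Gclc, which makes glutathione, was at 899.6 CPM in cDC1-type and 59.8 CPM in cDC2-type members of the wild-type, and at 567 and 133 CPM in the SCD library. On the cDC2 side, Il1b had log2 ratios of -2.58 and -2.74, the calcium channel gene Ryr3 of -2.44 and -3.01 and Cygb, a cytoglobin, of -3.04 and -4.32. Gal, Col17a1, Tmprss11d and Tnni1 were higher in wild-type cDC1-type members, with log2 ratios of 4.24, 4.19, 4.00 and 3.79, whereas the SCD values were -0.80, 0.75, 0.01 and -2.33 over 12 and 20 cells. Among the genes high in the cDC2 type, Aldh1a2, a retinoic acid synthesis enzyme, changed sign too, at -2.38 and 1.45. The median depth was 12231.5 UMIs in the cDC1-type and 6376 in the cDC2-type members of the wild-type.

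Between the SCD and the wild-type members, 77 of 3275 expressed genes (2.35%) were higher and 88 (2.69%) lower, and the median log2 ratio was -0.06. These counts depended on the minimum, since without the limit of 50 CPM 128 genes were higher and 612 lower, and with a pseudocount of 20 CPM 44 were lower. Of the 24 other mature markers expressed, 0 were lower and 4 higher (Ccl22, Net1, Laptm4b and Serpinb6b), with a median of 0.16, and the summed levels were 16431 and 16503 CPM (ratio 1.004, 0.981 to 1.03). Neither Net1 nor Serpinb6b was past the threshold within a lineage class, with log2 ratios of 0.995 and 0.85 in the cDC1-type and 0.02 and 0.15 in the cDC2-type members. Laptm4b was at 137 CPM (wild-type) and 210 CPM (SCD) in cDC1-type members. In cDC2-type members it was at 3.74 and 82.1 CPM, from 7 and 13 UMIs. None of 10 costimulatory genes was past the threshold, with a median of -0.30, and the summed ratio was 0.865 (0.816 to 0.916), below 1. Of 20 NF-κB genes 0 were past it, with a median of -0.18. MHC class I and class II loading genes had 0 of 15 and 0 of 9 past the threshold, with medians of 0.14 and -0.35. Tnfrsf4, the receptor OX40, was the costimulatory gene with the highest ratio, at 183 CPM in wild-type and 339 CPM in SCD members (ratio 1.85, 1.54 to 2.20).

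Of 7 expressed chemokines 1 was higher and 2 lower in SCD members. The 2 lower, Cxcl9 and Cxcl10, passed the minimum of 50 CPM only in the wild-type library, so no count or median is read here. The median was 0.52 and the summed ratio 0.927 (0.887 to 0.967). A single gene made up 82.3% of that wild-type sum, and with the mean over cells of each cell's CPM its log2 ratio turned from -0.11 to 0.13. Of 10 cytokine and receptor genes 1 was higher and 1 lower, with a summed ratio of 0.847 (0.783 to 0.915). Ccl22, a ligand of CCR4 on regulatory T cells, was at 70.6 CPM in wild-type (240 UMIs in 58 of 482 cells) and 236 CPM in SCD members (110 UMIs in 22 of 62 cells). The ratio was 3.34 (2.64 to 4.20). After thinning, it was seen in 6.47% (4.404 to 9.10) and 20.7% (11.2 to 33.4) of members, and in 0.0294% and 0.0288% of neutrophils. In resting conventional DCs Ccl22 had 6 UMIs (0.492 CPM) in the wild-type and 49 UMIs (9.46 CPM) in the SCD library. Without thinning the shares of members with Ccl22 were 12.0% and 35.5%. Il12b, which encodes the p40 subunit of IL-12 and IL-23, was at 60.3 CPM in 48 wild-type and 180.1 CPM in 13 SCD members (ratio 2.99, 2.29 to 3.87). It had 0 UMIs in the resting cDC2 and cDC1 sets of both libraries. Cxcl16, which stayed below the threshold, was at 572 and 821 CPM and was seen in 51.7% (47.1 to 56.4) and 75.9% (62.8 to 86.1) of thinned members, and in 73.7% and 87.1% without thinning. The thinned shares were 3.56% and 8.42% in resting cDC1, 1.16% and 0.820% in resting cDC2 and 0.617% and 0.144% in neutrophils. Within the cDC1-type members the Ccl22 level was 92.0 CPM (wild-type) and 412 CPM (SCD), and within the cDC2-type at 19.2 and 37.9 CPM. Il12b was at 135 and 311 CPM within the cDC1 type and at 14.4 and 69.5 CPM within the cDC2 type, with 40 and 11 UMIs behind the SCD values.

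Cxcl9, a ligand of CXCR3, had the lowest ratio once globin genes were left out (Hbb-bs was at a log2 ratio of -5.40). It had 435 UMIs in wild-type members (128 CPM) and 0 UMIs in SCD members, where the floor of 3 counts stands for 6.43 CPM. The wild-type UMIs came from 23 of 482 cells (4.77%), and 1 cell held 30.8% of them. With so small a share of cells, 0 of 62 SCD members gives no fold bound per cell. Resting cDC2 had 16.5 and 1.98 CPM and resting cDC1 71.1 and 32.8 CPM of Cxcl9, at log2 ratios of -1.62 and -1.01. Cxcl10, a second CXCR3 ligand whose promoter is shown above, was at 60.6 CPM in 13 wild-type cells (2.70%), with 32.0% of the UMIs in 1 cell. In the SCD library it was at 2.14 CPM from 1 UMI in 1 cell (1.61%). The ratio of 0.0354 (0.000891 to 0.199) counts UMIs, and the shares of cells were closer. Other interferon-stimulated genes were not past the threshold, with 0 of 9 higher or lower. Their median was -0.16 while their summed ratio was 1.15 (1.06 to 1.25), so the signs differed. Irf1 was at 282 and 459 CPM, Mx1 at 108 and 180.1 CPM and Isg15 at 60.6 and 34.3 CPM. Il1b was at 183 CPM in wild-type and 66.5 CPM in SCD members (ratio 0.363, 0.244 to 0.520).

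Some lineage genes were past the threshold between the libraries. Of 19 cDC2 and 18 cDC1 lineage genes, 11 and 10 passed the minimum of 50 CPM in at least 1 library, and no count or median over them is read here, since several passed it only in the library where they were higher. Among those lower in the SCD members, Sirpa was at 285 and 124 CPM (ratio 0.437, 0.329 to 0.569). The minimum was reached only in the wild-type by Dtx1, which acts in Notch signalling, at 127 and 36.4 CPM, Cd4 at 114 and 30.01 CPM, the transcription factor Irf4 at 81.5 and 32.2 CPM, and Esam at 87.7 and 40.7 CPM. In resting cDC2 the log2 ratios of Dtx1, Cd4 and Esam were also past the threshold, at -1.36, -1.56 and -1.11, against -0.30 for Sirpa and 0.20 for Irf4. Those resting sets differed in makeup, with the Clec4a4 and Dtx1 type at 586 of 1041 wild-type and 86 of 244 SCD cells, and Dtx1 helped to choose them. Within the cDC2-type members Cd4, which did not choose that class, was at 160 and 82.1 CPM, with a log2 ratio of -0.92 that did not reach the threshold. The transcription factor Irf8, a cDC1 lineage gene, was higher in the SCD members, at 169 and 403 CPM. Xcr1, at 25.6 and 57.9 CPM with 48.1% of the 27 SCD UMIs in 1 cell, and Cd24a, at 39.7 and 126 CPM, reached the minimum only in the SCD library. Irf8 had a log2 ratio of 0.44 within the cDC1 type and 1.45 within the cDC2 type, the latter over 24 SCD UMIs. Cst3 was at 5662 CPM in wild-type and 14181 CPM in SCD members (ratio 2.505, 2.44 to 2.58). Resting cDC2 were at 2448 and 3496 CPM. Resting cDC1 were at 10342 and 22693 CPM, values of sets that differed in makeup as given above. Within the cDC2-type members Cst3 was at 1883 and 4536 CPM, and within the cDC1 type at 16583 and 26721 CPM.

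The genes with the highest SCD over wild-type ratios differed in how many cells held them. Of these 10, only Crip1 and Lgals3, given below, reached the minimum in both libraries, and the others reached it only in the SCD library, where they were higher. Cited4, a transcriptional coactivator, had 33 UMIs in 5 of 62 SCD members, 54.5% of them in 1 cell, and 11 UMIs in the wild-type. Fabp1, a fatty acid-binding protein of liver and gut, had 31 UMIs in 3 cells, and Tdh 37 UMIs in 6 cells, with 14 and 50 UMIs in wild-type members. Bcl2l14, a BCL2-like gene, was spread over more cells, with 62 UMIs in 39 wild-type and 57 UMIs in 14 SCD members (ratio 6.70, 4.59 to 9.76), although 1 SCD cell held 31.6% of the SCD UMIs, and Zdhhc14, a palmitoyltransferase, had 62 UMIs in 35 and 44 UMIs in 19 members. Aire, a list gene and not among these 10, is a regulator of transcription known from thymic epithelium and rare DC-like cells. It was at 57.1 CPM in 77 wild-type members and 90.03 CPM in 11 SCD members, a log2 ratio of 0.61 that did not reach the threshold, and was below 1 CPM in resting cDC2 and cDC1 of both libraries. The sign differed by lineage class, with log2 ratios of -0.85 in the cDC1-type and 2.57 in the cDC2-type members, over 6 and 29 SCD UMIs. After thinning, Aire had a UMI in 7.97% (5.68 to 10.8) and 8.62% (2.86 to 18.98) of members, and in 0.0881% and 0.0144% of neutrophils, and without thinning in 16.0% and 17.7% of members.

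Crip1 was at 257 and 1005 CPM in members and moved likewise in resting cDC2, with a log2 ratio of 1.95 in members and 1.46 in resting cDC2. The galectin genes Lgals1 and Lgals3 had log2 ratios of 2.22 and 1.93 in members and 1.84 and 1.60 in resting cDC2, and 1 SCD member held 44.9% and 29.5% of their UMIs. Wfdc21 and Serpinb1a had log2 ratios of 2.06 and 2.59, and were at 5537 and 577 CPM in SCD neutrophils against 85.7 and 64.3 CPM in SCD members. Lyz2, also a neutrophil and monocyte gene, was at 399 and 815 CPM in members and at 1992 and 4101 CPM in resting cDC2, but 1 SCD member held 65.5% of its UMIs.

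Each of the 10 genes lowest in SCD members reached the minimum only in the wild-type library, where they were higher. Among them, 3 lie near the beta globin locus that differs between the animals. Trim5 was at 52.4 CPM (178 UMIs in 109 cells) in wild-type and 0 UMIs in SCD members, at least 8.14-fold lower, and lies 435 kb from Hbb-bs on chromosome 7. Trim12a, 472 kb away, was at 78.3 and 6.43 CPM, and Trim34a, 416 kb away, at 73.3 and 10.7 CPM. In resting cDC2 the same genes had log2 ratios of -3.05, -3.45 and -1.59. These genes belong to a family with near-identical copies, so their counts are uncertain. Asb2 (147 and 34.3 CPM), a ubiquitin ligase subunit, was also lower in resting cDC2, at a log2 ratio of -1.27. Klf2, a factor of T cell and monocyte quiescence, was at 136 CPM in 183 wild-type members and 32.2 CPM in 5 SCD members, with 46.7% of the SCD UMIs in 1 cell, against log2 ratios of -0.47 in resting cDC2 and -0.03 in resting cDC1. Cd300c2 was at 57.4 and 12.9 CPM, with log2 ratios of -1.80 in members, 0.17 in resting cDC2 and -0.73 in resting cDC1. Gm37010 was at 50.6 and 8.57 CPM. Differences between sets were not tested.

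**Figure D5:**
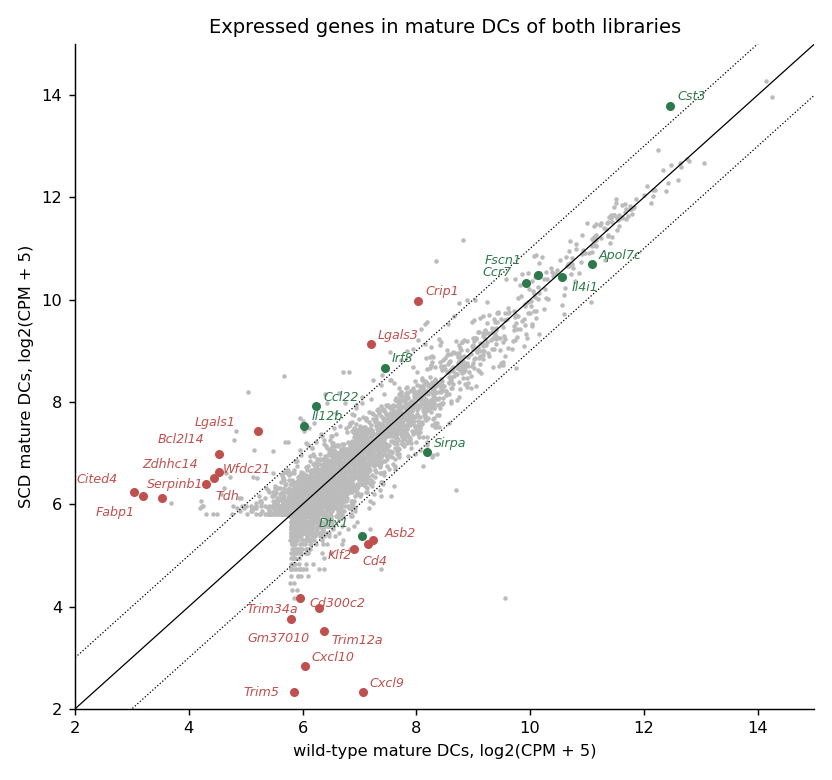
Each grey point is 1 of the 3275 expressed genes, as log2(CPM + 5) in wild-type (horizontal) and SCD (vertical) mature DCs, and dotted lines mark a log2 ratio of 1 either way. Red genes are the 10 highest and 10 lowest ratios of named classes, from Cited4 at 3.20 to Cxcl9 at -4.73, and green genes are markers and lineage genes named in the text.

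Genes that handle heme and iron, and targets of the antioxidant factor NRF2, were measured as further lists. None of 7 expressed heme and iron genes was past the threshold, and their median was -0.26. Their summed level was 7172 CPM in wild-type and 9740 CPM in SCD members (ratio 1.36, 1.32 to 1.40), opposite in sign to the median. Ftl1, the ferritin light chain, was at 4883 and 7792 CPM, and Fth1, the heavy chain, at 1852 and 1473 CPM. Hmox1, the heme-degrading enzyme, was below the minimum, at 35.3 and 12.9 CPM, and 1 cell held 60.8% of its 120 UMIs in wild-type members. Of 15 NRF2 target genes 1 was higher and 0 lower, with a median of 0.42 and a summed ratio of 1.41 (1.34 to 1.49). It was Txn1, thioredoxin, at 467 and 1020.3 CPM, with log2 ratios of 0.69 in resting cDC2 and 0.96 in resting cDC1. Within the cDC1-type members its log2 ratio was 0.37, below the threshold, and within the cDC2-type members 1.26. Gclc was at 394 and 497 CPM in members against 18.1 and 20.2 CPM in resting cDC2, and Sqstm1, an autophagy adaptor, at 242 and 407 CPM.

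Markers of other cell types were summed as lists. Tcf7, a factor of T cells, was at 301 CPM in wild-type (1024 UMIs in 319 cells) and 219 CPM in SCD members (102 UMIs in 34 cells), and at 15.3 and 4.75 CPM in resting cDC2. The whole list of 12 T and NK cell genes, Tcf7 included, summed to 318 and 231 CPM, with 5 and 8 genes at 0. Monocyte markers summed to 263 and 493 CPM, B cell markers to 350.4 and 377 CPM and red pulp macrophage markers to 378 and 163 CPM. Erythroid markers summed to 1428 and 208 CPM in members and to 1685 and 214 CPM in resting cDC2. Hbb-bs was at 747 CPM in wild-type members with 92.7% of its UMIs in 1 cell, and had 6 UMIs in SCD members.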

How the data were processed

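UMIs were counted from 10x Genomics 3′ v3.1 libraries of 1 wild-type and 1 SCD spleen suspension. The authors aligned reads and called cells with Cell Ranger, and the submitters' processing notes list Cell Ranger 4.0.0, Seurat 3.2.3, Scanpy 1.6.0 and the build GRCm38.p6. The authors deposited unnormalized UMI counts of each gene in each cell. The quality limits applied here use the numbers of the study's methods. Those methods, as worded, leave out cells below 15% mitochondrial and 30% ribosomal genes, which was read here as leaving out cells at or above these limits. The study's limit on genes found in few cells was not applied. Kept cells held 60855219 wild-type and 99614660 SCD UMIs in all.

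Counts were summed per set and library and given as CPM with exact Poisson intervals, shares with exact Clopper-Pearson intervals and ratios with exact conditional binomial intervals (Python 3.11.15, scipy 1.17.1). With 1 sample per group no count model was fitted. Resting DCs had at most 1 UMI of the 5 rule markers, the same limits on MHC class II, S100 and Siglech, at most 2 UMIs of Cd79a and Cd79b, and at least 4 UMIs of Xcr1, Clec9a, Wdfy4 and Naaa (cDC1) or 2 of Clec4a4 and Dtx1 or of Cd209a and Clec10a (cDC2), with at most 1 UMI of the other lineage's genes (for cDC2, Xcr1 and Clec9a). Neutrophils had at least 1% S100a8 and S100a9 and under 0.5% MHC class II. Doublets were kept in the main values. Scrublet (scanpy 1.11.5) called 364 wild-type and 261 SCD cells, with 9 and 0 among the members. Members, gene lists and tests were chosen with earlier results of these data known. Named were the rule genes and Il4i1, list genes, the 10 highest and 10 lowest SCD over wild-type ratios, and the 15 most extreme genes over resting DCs (the least of 4 ratios), without sex-linked, globin, mitochondrial and ribosomal genes, antigen receptor genes of B and T cells, and other cell types' markers (8, 3, 0 and 1 left out). Genes contrasted between cDC1-type and cDC2-type members are the 12 most extreme each way in the wild-type, of which some are given. Of 26124 gene identifiers, 26013 were found in GENCODE M21 (GRCm38), which gave positions. The sums were tested on simulated data.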

Additional observations from a re-analysis of the deposited data

How the results depend on the processing

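Of 116 alternative values of the results that answer a comparison, 103 stayed within the counting interval, or within 1.5 times for counts. The summed inhibitory list, at a log2 ratio of -0.0037, had the other sign in 2 of 8 settings (-0.038 to 0.054), and the other mature markers, at 0.0062, in 3 of 8 (-0.026 to 0.064). The share of mature DCs among kept cells moved from a ratio of 0.114 to 0.207 without neutrophils in the denominator, and otherwise lay between 0.0908 and 0.135, with the members chosen by other markers giving the latter. Those other markers shared 94.8% of wild-type and 90.3% of SCD members, which were 57.7% and 46.3% of the cells they chose. Without both the S100 and the MHC class II limit, chosen after seeing the data, the ratios were 0.126 among kept cells and 0.518 among conventional DCs. The share of members with more cDC1 transcripts moved to 8.30% in the wild-type without thinning, and to 9.70% in the wild-type and 24.1% in the SCD library with 1 lineage UMI as the minimum. Genes lower in SCD members numbered 44 with a pseudocount of 20 CPM. Without a CPM minimum, 128 genes were higher and 612 lower in SCD members, and over resting cDC2 947 were higher and 1035 lower in the wild-type and 1779 lower in the SCD library. With at least 5 members holding the gene, an alternative chosen after seeing the data, 75 were higher and 88 lower in SCD members. The log2 ratio of the summed heme and iron genes moved from 0.44 to 0.50 with median-of-ratios scaling and to 0.53 with the mean over cells of each cell's CPM, and that of NRF2 targets from 0.50 to 0.62. The summed chemokine list reversed under that mean, from -0.11 to 0.13. No paired analysis was possible because with 1 library per group no pairs exist, and no replicate could be left out. Depth limits the 62 SCD members, in which 1 cell held 5.13% of all UMIs. The causes of these shifts were not tested.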
